A study of Homo sapiens with 6 samples.

Results

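Counts of 10 organic anion transporter genes of the SLCO family were followed in RNA from vesicles shed by cancer spheroids, with SLCO5A1 as the gene of interest and the other 9 as its reference. Members were taken by symbol: SLCO5A1, SLCO1A2, SLCO1B1, SLCO1B3, SLCO1C1, SLCO2A1, SLCO2B1, SLCO3A1, SLCO4A1 and SLCO4C1. All 10 were found among the 38167 genes of the count table, and all 10 passed the filter on low counts, which kept 31074 genes. SLCO5A1 was chosen by its fold change between the soft and the stiff matrix in these same libraries, so its values in that comparison are a description with no test, and the other members were chosen as its gene family.

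The vesicles came from Cal27, an established squamous carcinoma line of the human tongue, grown as spheroids and sampled on day 14. Soft libraries came from spheroids in Matrigel, a basement membrane gel, at 3 mg/mL, and stiff libraries from spheroids at 12 mg/mL, with no other treatment named. The 2 groups held 3 libraries each, called biological replicates in the labels. Nothing says that they came from separate cultures, so p-values here measure the spread between these libraries only. The comparison asks how vesicle RNA differs with the density of the surrounding gel, and concentration and stiffness changed together. Counts were of vesicle RNA as a whole, so fewer vesicles of a kind and less RNA in each vesicle cannot be told apart.

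SLCO genes encode organic anion transporting polypeptides, membrane proteins with many membrane-spanning helices that carry amphipathic anions such as bile salts, steroid conjugates, thyroid hormones and prostaglandins into cells without using ATP. Members differ in where they act. SLCO1B1 and SLCO1B3 belong to the hepatocyte, SLCO1C1 to the blood-brain barrier and choroid plexus, and SLCO2A1 to the clearance of prostaglandins, while SLCO3A1 and SLCO4A1 are broadly expressed. SLCO5A1 is among the least understood, and its substrates are poorly defined.

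Library totals ran from 2445498 to 2977837 counts, and 97.5% to 97.9% of genes had at least 1 count in each library. Ribosomal RNA genes of the 45S units took 2.97% to 8.87% of counts in soft and 20.02% to 22.9% in stiff libraries, and mitochondrially encoded messengers 1.48% to 1.81% and 0.162% to 0.201%. The labelled cell type was checked with 10 squamous epithelial markers, none at 0 in any library, which summed to 326 to 342 CPM (counts scaled to a common library size with TMM factors) in soft and 361 to 372 in stiff. Of these, 1 was called higher in stiff, the basal keratin KRT14, where 0.286% of all genes were. That call was not followed over the alternative fits. Among the 10 squamous markers, 6 fold changes were above 0 and 4 below, with a median of 0.11 on the log2 scale. Markers of cells that should be absent were not at 0 either. The 10 hepatocyte markers summed to 277 to 288 CPM in soft and 277 to 290 in stiff, 7 fibroblast markers to 271 to 287 and 282 to 298, 7 leukocyte and red cell markers to 102 to 119 and 100.2 to 113, and 7 markers of brain endothelium and choroid plexus to 208 to 237 and 208 to 243. Per kb of exon in soft libraries, the median was 6.84 CPM for the squamous markers, 5.40 for those of brain endothelium and choroid plexus, 3.82 for leukocyte and red cell, 3.39 for hepatocyte and 3.30 for fibroblast markers, beside 6.20 for all protein-coding genes tested.

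SLCO5A1 had about 2-fold more counts in vesicles from the stiff gel. Soft replicates 1 to 3 had 211, 197 and 292 counts of it, and stiff replicates 1 to 3 had 434, 482 and 591. On the CPM scale the soft libraries stood at 77.4, 71.4 and 110.1 and the stiff libraries at 178, 181 and 225. Every stiff library lay above every soft one, as in 7.38% of all genes tested. Replicate 3 was the highest of its group on both sides. The group means were 86.3 ± 20.8 and 195 ± 26.03 CPM (SD, n = 3 each), a ratio of 2.26, and the fitted log2 fold change was 1.18 ± 0.11 (SE), with a 95% interval of 0.96 to 1.39. That interval takes no account of the choice of the gene by this fold change. Over all genes tested, 26 had a larger fold change upwards, of which 6 passed the test. The spread between soft replicates was wider than counting alone gives: the SD of the 3 soft counts was 51.3, where the square root of their mean of 233 is 15.3. In stiff the SD was 80.5 and the square root of the mean of 502 was 22.4.

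On the GRCh38 build, with GENCODE release 29 as the annotation, SLCO5A1 lies on the minus strand of chromosome 8 from 69667047 to 69835064 and has 9992 bp of exon. The 4 SLCO1 genes sit together on chromosome 12: SLCO1C1 from 20695355 to 20753386, SLCO1B3 from 20810702 to 20916911, SLCO1B1 from 21131202 to 21239246, and SLCO1A2 from 21264600 to 21419594. SLCO2A1 is on chromosome 3 (133928145 to 134052184), SLCO2B1 on chromosome 11 (75100563 to 75206549) and SLCO3A1 on chromosome 15 (91853695 to 92172435). SLCO4A1 is on chromosome 20 (62642445 to 62685785) and SLCO4C1 on chromosome 5 (102233986 to 102296549). The longest SLCO5A1 transcript aligned with that of SLCO2A1 over 294 bp at 86.4% identity and with that of SLCO2B1 over 302 bp at 84.4%, and how reads from such stretches were counted is not given in the sources used here. SLCO2A1 and SLCO2B1 aligned with each other over 298 bp at 86.2%. Whether these stretches also occur in genes outside the family was not tested.

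**Figure D1:**
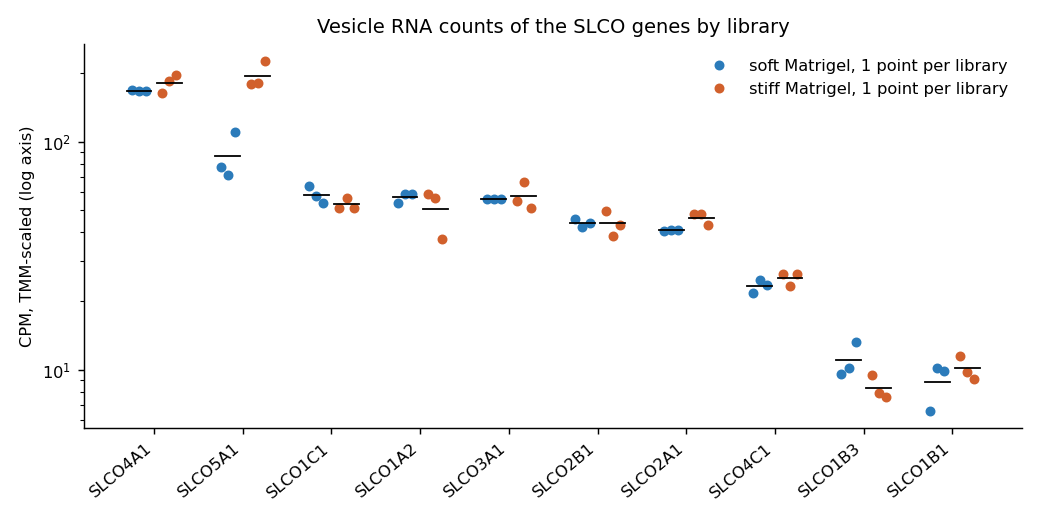
CPM of the 10 SLCO genes in each library (log axis), 3 soft and 3 stiff libraries per gene, with a black bar at each group mean. The stiff libraries of SLCO5A1 (178 to 225 CPM) stand clear of its soft ones (71.4 to 110.1 CPM). SLCO1B3 and SLCO2A1 are the other genes whose groups do not overlap, where 14.1% of all genes tested have such groups.

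Ribosomal RNA was higher in stiff libraries, as SLCO5A1 was, but within the groups their orders matched only in part. The 45S, 28S, 18S and 5.8S genes summed to 26644, 38420 and 85128 CPM in soft replicates 1 to 3 and to 242242, 217959 and 258852 CPM in stiff replicates 1 to 3. The soft library with the most ribosomal RNA, replicate 3, was thus also the soft library with the most SLCO5A1, and the same held for stiff replicate 3. From the soft library lowest in ribosomal RNA to the highest, SLCO5A1 was 32.7 CPM higher, which is 0.559 CPM for each 1000 CPM of ribosomal RNA. Between the group means the difference was 108 CPM, or 0.572 for each 1000. Between stiff replicates 2 and 3 it was 43.8 CPM, or 1.07 for each 1000. The order was not complete, since soft replicate 2 had more ribosomal RNA but less SLCO5A1 than soft replicate 1, and stiff replicate 1 more ribosomal RNA but slightly less SLCO5A1 than stiff replicate 2. The other 9 SLCO genes summed to 466, 467 and 467 CPM in soft replicates 1 to 3 and to 473, 491 and 465 CPM in stiff replicates 1 to 3. That sum did not follow ribosomal RNA within the groups: from soft replicate 1 to 3 it differed by 1.31 CPM, and stiff replicate 3 was 25.9 CPM below stiff replicate 2. The part of ribosomal RNA in the SLCO5A1 result was not tested. A stretch of 923 bp of the 18S gene and the 5.8S gene had no alignment in the longest transcript of any of the 10 SLCO genes (blastn, E under 0.001). Of 25653 genes searched, 1 (0.0039%) had an alignment of at least 50 bp, so finding none among 10 genes says little. The 28S sequence was not analysed here.

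**Figure D2:**
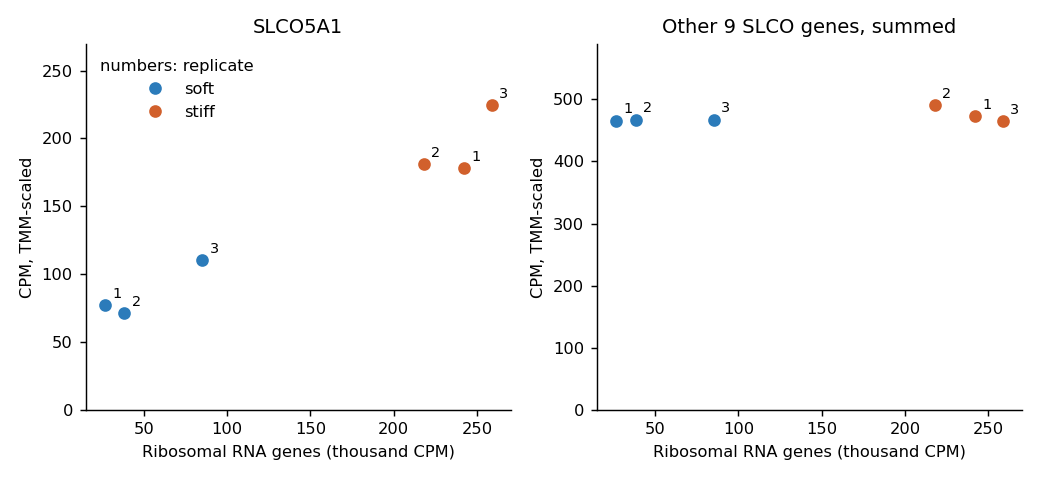
CPM of SLCO5A1 (left) and of the other 9 SLCO genes summed (right) against the CPM of ribosomal RNA genes in units of 1000 CPM, with 1 point per library, numbered by replicate and coloured by group. SLCO5A1 runs from 71.4 to 225 CPM and is highest in replicate 3 of each group, while the sum of the others stays between 465 and 491 CPM.

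None of the other 9 SLCO genes passed the test between the matrices (0 higher and 0 lower; edgeR quasi-likelihood test, adjusted p from 0.687 to 0.994), where 0.451% of all genes did, 0.286% higher and 0.164% lower. At an unadjusted p under 0.05 the count was also 0 of 9, against 9.51% of all genes. In a set of 9 genes, 0 is near both of these shares, so it does not set the family apart. Limma-voom and DESeq2 without its filter also called 0 of the 9. With its filter DESeq2 called 0 of the 6 to which it gave an adjusted p, and gave none to SLCO1B1, SLCO1B3 and SLCO4C1. Their fold changes lay on both sides of 0, with 5 above and 4 below, and their median of 0.04 on the log2 scale was near the −0.00484 of all genes tested. Groups did not overlap in CPM for 2 of the 9, SLCO1B3 (lower in stiff, against 6.76% of all genes) and SLCO2A1 (higher in stiff, against 7.38%). In both directions together the share of all genes was 14.1%.

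Among the members best known from the liver, SLCO1B1, which takes up bilirubin conjugates and statins, had 18, 28 and 26 counts in soft and 28, 26 and 24 in stiff libraries. Its log2 fold change was 0.19 ± 0.29 (SE), and the 95% interval of −0.37 to 0.76 is wide at these counts. SLCO1B3, its close relative, had 26, 28 and 35 counts in soft and 23, 21 and 20 in stiff, all stiff libraries below all soft ones, at −0.40 ± 0.29. Both transcripts align over 2137 bp at 86.8% identity, the longest alignment between any pair of members, so reads could be shared between them. SLCO1B3 also overlaps the readthrough gene SLCO1B3-SLCO1B7, which had 25, 29 and 36 counts in soft and 22, 13 and 21 in stiff (adjusted p = 0.497 by edgeR, and called lower at −0.87 under library totals alone). Since those genes share exons, their counts cannot be read as separate measurements.

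Of the members linked to brain and broad anion uptake, SLCO1C1, a carrier of thyroxine, had 174, 159 and 143 counts in soft and 124, 151 and 135 in stiff. These groups overlapped, and its log2 fold change was −0.14 ± 0.12 (SE). SLCO1A2, which accepts bile salts and many drugs, had 147, 162 and 156 counts in soft and 143, 150 and 98 in stiff. Stiff replicate 3 was the lowest library for SLCO1A2, while it was the highest for SLCO5A1. The log2 fold change of SLCO1A2 was −0.17 ± 0.13, and 0.01 without that library.

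The prostaglandin transporter SLCO2A1 had 111, 113 and 109 counts in soft and 117, 128 and 113 in stiff libraries, which on the CPM scale is 40.9 ± 0.192 and 46.4 ± 2.95 (SD, n = 3 each). Its groups did not overlap in CPM, and the log2 fold change of 0.18 ± 0.13 (SE) did not pass the test (edgeR adjusted p = 0.728). SLCO2B1, a carrier of steroid sulfates, had 125, 116 and 116 counts in soft and 121, 103 and 113 in stiff, with a log2 fold change of −0.01 ± 0.14. SLCO3A1, with 153, 155 and 149 counts in soft and 134, 178 and 135 in stiff, stood at 0.04 ± 0.12.

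SLCO4A1, a thyroid hormone and taurocholate carrier often found in epithelial tumours, had the most counts of the family in soft libraries. It had 457, 461 and 443 counts in soft and 396, 489 and 516 in stiff, or 167 ± 0.363 and 181 ± 16.9 CPM (SD, n = 3 each). The fitted interval for SLCO4A1, −0.04 to 0.27 on the log2 scale, is the narrowest of the family. Its antisense gene SLCO4A1-AS1 had 42 to 53 counts in soft and 29 to 57 in stiff, and since the strand setting of the counting is not given in the sources used here, reads from the pair may be mixed. SLCO4C1, a kidney transporter of cardiac glycosides, had 59, 68 and 62 counts in soft and 64, 62 and 69 in stiff (log2 fold change 0.12 ± 0.18, SE). SLCO6A1, a testis gene of the same family outside the 10, had 49, 64 and 62 counts in soft and 49, 67 and 68 in stiff (0.14 ± 0.19). Both had groups that overlapped.

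**Figure D3:**
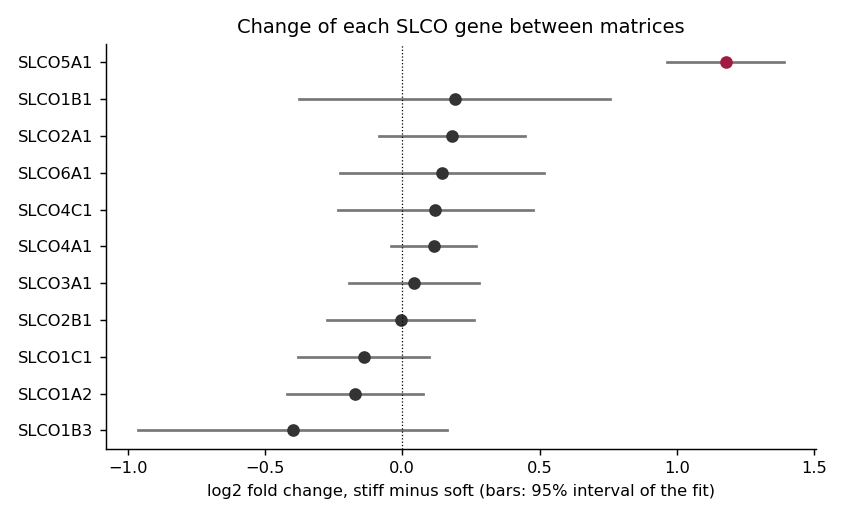
Fitted log2 fold change, stiff minus soft, of the 10 SLCO genes and SLCO6A1, with the 95% interval of the edgeR fit as a bar. SLCO5A1 lies at 1.18 and every other bar crosses the dotted line at 0. SLCO5A1 was chosen by this fold change, so its bar is a description and no test.

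As a share of the counts of the 10 genes, SLCO5A1 took 14.2%, 13.2% and 19.1% in soft replicates 1 to 3 and 27.4%, 26.9% and 32.6% in stiff replicates 1 to 3. The means were 15.5% ± 3.11 and 28.97% ± 3.14 (SD, n = 3 each), a ratio of 1.87. This ratio does not depend on scaling between libraries. It was 2.11 without soft replicate 3. The other 9 genes together had 467 ± 0.786 and 476 ± 13.3 CPM, a ratio of 1.02.

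Levels were compared between genes as CPM per kb of exon, with exon lengths from GENCODE, which may differ from the gene models that were counted. In soft libraries SLCO4A1 led at 41.3 CPM per kb, followed by SLCO1C1 at 12.03, SLCO5A1 at 8.64, SLCO3A1 at 5.95, SLCO1A2 at 4.96, SLCO4C1 at 4.35, SLCO2B1 at 4.24, SLCO2A1 at 4.16, SLCO1B1 at 3.97 and SLCO1B3 at 3.09. Neighbours in that order from SLCO4C1 to SLCO1B3 overlapped in their library values and are not separated by this measure. The 5 genes above them, SLCO4A1, SLCO1C1, SLCO5A1, SLCO3A1 and SLCO1A2, did not overlap the next in order, though the gap between SLCO1C1 (lowest library 11.09) and SLCO5A1 (highest library 11.02) was narrow. In stiff libraries SLCO5A1 took the second place at 19.5 CPM per kb, behind SLCO4A1 at 44.6 and ahead of SLCO1C1 at 10.9, and overlapped neither. Its stiff libraries ran from 17.9 to 22.5 CPM per kb. The order depends on the length used: with the longest transcript, SLCO3A1 at 10.98 CPM per kb stood ahead of SLCO5A1 at 9.51 in soft, so that SLCO5A1 ranked 4 there, and it was again second in stiff at 21.5. By that length SLCO5A1 in soft stood at 1.28 times the median of the other 9, where with all exons it stood at 1.98 times.

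Olfactory receptor genes, which are mostly silent outside the nose, served as a background for these levels. The median of 381 olfactory receptor genes was 4.35 CPM per kb in soft libraries and 4.24 in stiff, and that of 18732 protein-coding genes tested was 6.20 and 6.19. In soft, 5 of the 10 SLCO genes were under the olfactory receptor median, among them both hepatocyte transporters, at 0.912 times it for SLCO1B1 and 0.711 times for SLCO1B3. SLCO4C1 was at 1.00 times it. SLCO4A1 was 9.48 times it, at percentile 99.7 among protein-coding genes. Among genes within 2.5 percentage points of its own GC content, SLCO4A1 was at percentile 99.4 and SLCO1C1 at 98.2 in soft. The 5 genes under the olfactory receptor median were at 58.4 (SLCO4C1), 56.7 (SLCO1B1), 38.5 (SLCO1B3), 14.9 (SLCO2A1) and 14.5 (SLCO2B1) by that measure. In stiff, SLCO4C1 (4.74), SLCO2A1 (4.72) and SLCO1B1 (4.55) lay above the olfactory receptor median. SLCO2B1 (4.23) and SLCO1B3 (2.35) lay below it. SLCO5A1 was at percentile 69.5 among protein-coding genes in soft libraries and at 95.05 in stiff. Among the 3718 genes of like GC content it was at 88.6 and 99.1, where their medians were 4.80 and 4.76 CPM per kb. Its mean soft level of 8.64 CPM per kb was 1.98 times the olfactory receptor median. That level lay under percentile 95 of the olfactory receptor genes, 10.38, and so within the range of this background. In stiff its mean of 19.5 lay above their percentile 95 of 10.48. These percentiles describe levels and carry no test.

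**Figure D4:**
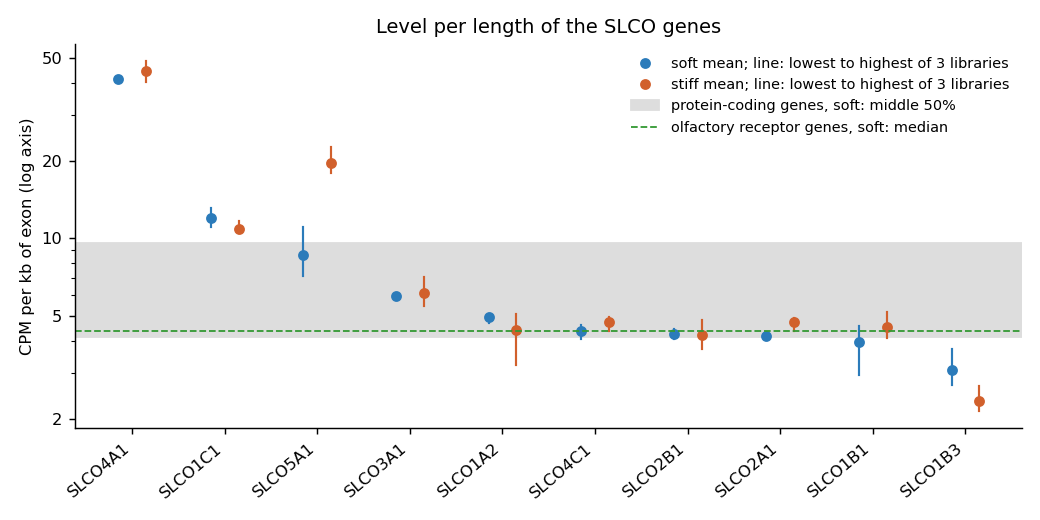
CPM per kb of exon (log axis) of the 10 SLCO genes in order of their soft level, with the group mean as a point and the lowest to highest of 3 libraries as a line. The grey band runs between the quartiles of protein-coding genes (4.14 to 9.58) and the dashed line the olfactory receptor median (4.35) in soft libraries; SLCO5A1 goes from 8.64 in soft to 19.5 in stiff.

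Of the genes beside SLCO5A1 on the chromosome, 10 were read for comparison. The 5 protein-coding genes on each side are ARFGEF1, CPA6, PREX2, C8orf34 and SULF1 on one and PRDM14, NCOA2, TRAM1, LACTB2 and XKR9 on the other. Of these 10, 0 passed the test by edgeR, against 0.451% of all genes, and 1 had an unadjusted p under 0.05, against 9.51%. That gene was PREX2, an exchange factor for Rac, at a log2 fold change of 0.28 ± 0.13 (SE; adjusted p = 0.430). In a set of 10 genes, both counts are near the shares of all genes. Fold changes were above 0 for 3 and below 0 for 7, with a median of −0.18. With library totals alone as the scaling, where the median of all genes was −0.27, 5 of the 10 were called lower: C8orf34, PRDM14, NCOA2, TRAM1 and XKR9. Groups did not overlap for 2 of the 10, PREX2 and SULF1, both higher in stiff, against 7.38% of all genes in that direction and 14.1% in both. SULF1, the nearest on one side and an enzyme that trims heparan sulfate, had 69, 77 and 64 counts in soft and 71, 79 and 76 in stiff. PRDM14, the nearest on the other side and a regulator of pluripotency, had 61, 54 and 59 counts in soft and 30, 47 and 54 in stiff. A long non-coding gene inside SLCO5A1, LOC105375889, had 58, 49 and 38 counts in soft and 41, 39 and 31 in stiff (log2 fold change −0.31 ± 0.22, SE), and its groups overlapped.

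**Figure D5:**
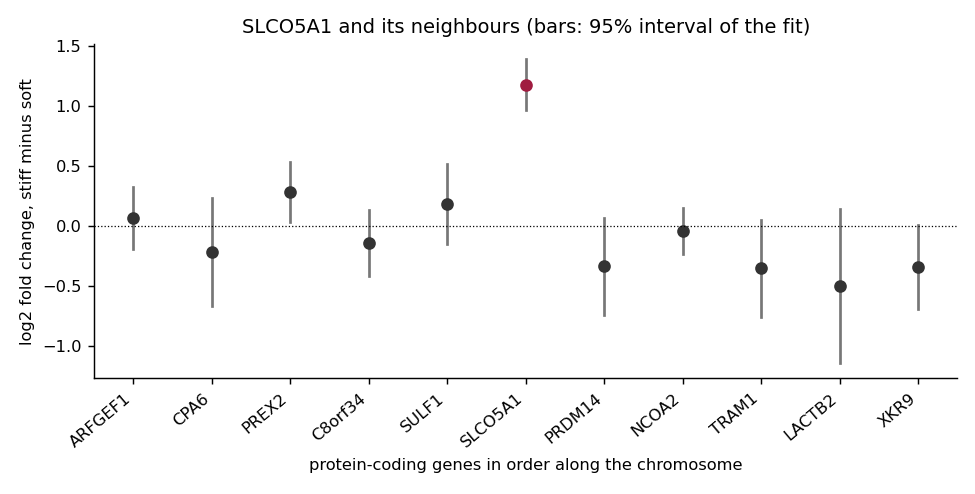
Log2 fold change, stiff minus soft, of SLCO5A1 and the 5 protein-coding genes on each side in their order on the chromosome, with 95% intervals of the edgeR fit. SLCO5A1 lies at 1.18, and its neighbours range from −0.50 for LACTB2 (−0.83 without soft replicate 1 and −0.12 without soft replicate 3) to 0.28 for PREX2.

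Genes that work around the SLCO transporters were counted in 3 lists, beside 0.451% of all genes called and 9.51% at an unadjusted p under 0.05; in lists this short, 0 calls is near that background. Of 25 other transporters of organic anions, such as the ABCC efflux pumps and the bile salt carrier SLC10A1, 0 were higher and 0 lower by edgeR, with a median log2 fold change of 0.00213 and 1 at an unadjusted p under 0.05. The lowest p-values belonged to SLC16A10, an aromatic amino acid and thyroid hormone carrier (45.5 ± 5.59 CPM in soft and 55.4 ± 5.72 in stiff, SD, n = 3 each; edgeR adjusted p = 0.433), and ABCC1, an efflux pump of glutathione conjugates (62.3 ± 6.34 and 71.02 ± 4.74 CPM; edgeR adjusted p = 0.616). Of 13 transcription factors that act on SLCO genes, 0 were called and 0 had an unadjusted p under 0.05, with a median of 0.03. NFE2L2, the oxidative stress regulator, had 41.3 ± 3.35 and 34.9 ± 8.35 CPM, and NR1I2, the xenobiotic receptor PXR, 20.9 ± 0.433 and 17.3 ± 2.501. Of 26 genes that make, bind or degrade SLCO substrates 24 were tested, with 0 called, a median of 0.11 and 4 at an unadjusted p under 0.05. SULT2A1, a steroid sulfotransferase of liver and adrenal, had 33, 41 and 35 counts in soft and 17, 18 and 25 in stiff (edgeR adjusted p = 0.228), and PTGER1, a prostaglandin E receptor, 142, 148 and 160 in soft and 163, 200 and 170 in stiff (edgeR adjusted p = 0.253). Groups did not overlap for NR1I2, SULT2A1 and PTGER1 among these 6 named genes, against 14.1% of all genes. Those 6 were named for the lowest p-values of their lists in this comparison, which favours such groups. Their count therefore cannot be set against that share. NFE2L2 (−0.51) and SULT2A1 (−1.05) were called lower when libraries were scaled by their totals alone.

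The genes whose library pattern was most like that of SLCO5A1 were sought among 22983 others with a mean of at least 10 CPM, by Pearson correlation of log2 CPM over the 6 libraries. LPGAT1, a lysophospholipid acyltransferase, came first at r = 0.998, followed by QKI, an RNA-binding protein, at 0.993, the keratin KRT75 at 0.990, LRRC45, a centrosome protein, at 0.989, and the non-coding RNA LSINCT5 at 0.988. In all, 121 genes had an r of at least 0.95. These points fall into 2 groups that share library scaling, so much of a high r records which group was higher. The order within groups enters it too: all 5 genes, like SLCO5A1, were highest in replicate 3 of each group. Choosing genes by r favours such an order. The sizes differed: LPGAT1 had 40.9 ± 1.47 CPM in soft and 46.7 ± 0.717 in stiff and LSINCT5 10.2 ± 0.962 and 16.03 ± 0.765 (SD, n = 3 each), ratios of 1.14 and 1.57 beside the 2.26 of SLCO5A1. Without soft replicate 3 only QKI kept a place among the 5 most alike, at rank 4. LPGAT1 then ranked 8, KRT75 24, LSINCT5 28 and LRRC45 38 of the 22983, with r between 0.989 (LRRC45) and 0.999 (QKI).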

How the data were processed

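RNA of vesicles isolated by insulator-based dielectrophoresis was sequenced as directional total RNA libraries, per the labels' protocols. The deposited values are raw counts per gene symbol, 1 column per library, with no normalization by the authors. The submitters' processing notes name Trim Galore 0.4.2, cutadapt 1.9.1, FastQC 0.11.7, STAR 2.6.1e, featureCounts 1.6.2, DESeq2 1.26.0 and hg38 without roles. Gene models, strand setting and treatment of multi-mapping reads are not given in the sources used here. In the descriptions, 2 stiff libraries carry the same replicate number, and the titles' numbers were used.

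Stiff was compared with soft over 31074 genes by edgeR 4.0.16 (R 4.3.3): TMM, filterByExpr, robust quasi-likelihood F tests, two-sided, Benjamini-Hochberg adjustment over all genes, threshold 0.05. A standard error is the log2 fold change divided by the root of its F value. CPM used the TMM-scaled totals, and log2 CPM for the correlations an offset of 0.5. Exon lengths and GC content came from GENCODE 29 (71.3% of symbols matched), and gene order and overlap from the RefSeq gene table for GRCh38.p14 (93.03% matched). Transcripts were aligned with blastn 2.17.0. On simulated counts for this comparison over 31074 genes, the procedure recovered 42.2% of genes changed 1.5-fold, 90.8% at 2-fold and 100% at 4-fold. Those counts were drawn with a single dispersion of 0.007 for every gene, and the rates pool genes of all count levels. They need not hold for noisier genes or for genes with few counts.

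Members and gene lists were chosen with earlier results of these data known. Named genes were the members, SLCO6A1, overlapping models, 5 protein-coding neighbours on each side, the 5 most alike genes and, per list, called genes or else the 2 with the lowest p. Libraries of 1 group were not copies of each other (chi-square per degree of freedom 1.53 to 3.86), and each library counted as 1 sample. Alternatives were DESeq2 1.42.0, limma-voom (limma 3.58.1), other scalings, no filter, GC offsets, a replicate block and leaving out each library.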

Additional observations from a re-analysis of the deposited data

How the results depend on the processing

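The log2 fold change of SLCO5A1 was above 0 in all 16 alternative fits, from 0.91 under library totals alone to 1.39 without soft replicate 3. The ratio of its share of family counts was 1.74 to 2.11 when single libraries were left out and 1.73 without SLCO4A1 and SLCO3A1. SLCO5A1 was chosen by its fold change in these same libraries, so the direction in these refits is a description and no test. Its level per kb over the median of the other 9 was 1.72 to 2.17 without single soft libraries and 1.28 with the longest transcript as the length. The number of the 5 most alike genes that stayed among the first 5 was 1 without soft replicate 3, though all 5 ranked between 4 and 38 of 22983.

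The count of genes called, 140, was 4194 under library totals alone (31 higher, 4163 lower; the median of all genes moved to −0.27), 91 with limma-voom, 81 with DESeq2 (5600 genes with an adjusted p), 46 with DESeq2 without its filter, 57 with GC offsets, where 23173 genes were tested, and 60 to 136 without single libraries. The count of other SLCO genes called was 0 in every alternative but library totals alone, where 2 were lower, SLCO1A2 (−0.44) and SLCO1C1 (−0.41). That scaling also turned the sign of SLCO1B1 (−0.075), SLCO2A1 (−0.089), SLCO3A1 (−0.23), SLCO4A1 (−0.16), SLCO4C1 (−0.15), SLCO6A1 (−0.12), ABCC1 (−0.081), ARFGEF1 (−0.20), SULF1 (−0.088), LPGAT1 (−0.077) and QKI (−0.048), all above the −0.27 of all genes. The count of SLCO5A1 neighbours called was 5 under that scaling and 0 under every other alternative. LACTB2 ranged from −0.83 to −0.12 without single libraries. With GC offsets, PTGER1 fell from 0.32 to 0.046, LRRC45 from 0.32 to 0.16 and SLCO4A1 from 0.11 to 0.044. SLC16A10 rose from 0.29 to 0.32 there, and none of them was called in either fit. Over the fits that each leave out 1 library, the sign turned for SLCO1A2 (−0.29 to 0.011; above 0 without stiff replicate 3), SLCO2B1 (−0.10 to 0.078), SLCO3A1 (−0.077 to 0.12; below 0 without stiff replicate 2), ARFGEF1 (−0.099 to 0.20), C8orf34 (−0.26 to 0.042) and NCOA2 (−0.093 to 0.015). No value of these 6 was called in those fits.

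With the replicate number as a block, 173 genes were called and SLCO5A1 was at 1.18. Same-numbered libraries did not deviate together (correlations of 0.00239, 0.00362 and −0.00355), and 2 of 6 libraries correlated best with their own number, so the numbers are not shown to pair the samples. Depth limits the members with the fewest counts most, SLCO1B1 and SLCO1B3, whose 95% intervals span more than 1 on the log2 scale.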
